A study of Mus musculus with 8 samples.

Results

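The CSF1 and G-CSF receptor axis was followed as 4 genes chosen by symbol, of 33696 in the matrices. They are *Csf1r*, the receptor tyrosine kinase for CSF1 and IL-34; *Csf1* and *Il34*, which encode its ligands; and *Csf3r*, the receptor for G-CSF. Brain tumours of mice were profiled by droplet single-cell RNA sequencing in 4 expression libraries, 2 labelled vehicle IgG (a control antibody) and 2 labelled mavrilimumab (an antibody against the GM-CSF receptor alpha chain). All mice, controls included, were of the genotype NestinCreERT2;Fus1;RFPTdT, with ependymoma formed by the ZFTA-RELA fusion under Nestin, a gene of neural progenitors, and with a luciferase reporter. Mice were randomised at 3 weeks of age, and either antibody was injected once, intrathecally, mavrilimumab at 5 mg per kg. Per the labels, tissue was taken at 6 to 8 weeks, and dissociated cells were stained for CD45 and Ter119 and sorted. The study describes these cells as extravascular CD45+ cells taken at recurrence, and a CD45+ gate should remove neural cells. It also reports tumour regression for some weeks after treatment and longer survival. How recurrence relates to the labelled age was not given in the sources used here, nor were age and time since injection for each library. These may differ between treatments and cannot be told apart from treatment. The study describes its receptor sequencing as made from tumours pooled within a group, and how many mice made up each library was not given in the sources used here, so p-values measure only the spread between these libraries.

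Signalling through CSF1R keeps microglia alive, and it supports the monocyte to macrophage lineage outside the brain. In healthy brain, IL-34 comes mainly from neurons, whereas CSF1 is made by glia and many stromal and immune cells. G-CSF, encoded by *Csf3*, acts through the receptor encoded by *Csf3r* and drives the production and release of neutrophils.

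Cells were grouped by other genes than the 4 studied, with UMIs (unique molecular identifiers, counts of captured transcripts) per cell: *P2ry12* and *Tmem119* for microglia, *Ccr2* or *Ly6c2* with *Lyz2* for monocytes, *Retnlg* and *Cxcr2* for neutrophils, *Cd3e* for T cells, *Ncr1* and *Klrb1c* for NK cells, and *Nnat* and *Mdk* without *Ptprc* for neural cells. Of 39645 cells kept, 31015 met exactly 1 rule and were used. Another 737 met more than 1 rule and were set aside, and 7893 met none. The summed level of each cell type's independent markers was highest in the matching group. The neural rule does not set tumour cells apart from other neural cells. Levels are given as CPM, the gene's UMIs per 1000000 UMIs of all genes, summed over the cells of a group in a library, and only sums of at least 20 cells were used.

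The libraries differed widely. They held 24354457 to 148657643 UMIs and 984 to 26757 kept cells. Of the kept cells of vehicle IgG 2, 57.6% met the neural rule alone, against 0.0312% to 7.52% elsewhere, and 267 of its barcodes met both the microglial and the neural rule. The 5 neural markers summed to 4269.5 CPM in its microglia, against 414, 590 and 766 CPM in those of vehicle IgG 1, mavrilimumab 1 and mavrilimumab 2. Any 2 expression libraries shared at most 60 cell barcodes. Of 193 barcodes of the vehicle IgG 1 receptor library, 182 were found in the expression library of that name. In 3 of 3 T cell receptor files an inner sample name gave the other treatment than the label, and barcodes of the receptor libraries labelled mavrilimumab 1 and 2 were found in the expression libraries labelled mavrilimumab 2 (2491 of 2749) and mavrilimumab 1 (4867 of 5659). All directions between treatments follow the labels.

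The RefSeq table of promoters (GRCm38.p6) held 2 of the 4 genes. The 250 bases before the start sites of these genes, *Csf1* and *Csf3r*, are shown. Both genes had neutrophils and then microglia as leading groups. Capitals mark the matches, on either strand, to GGGAA followed by any 3 bases and CC, an NF-kB-type motif, and to GAGGAA, a PU.1-type motif.
Csf1, chr3:107760470-107760719, minus strand: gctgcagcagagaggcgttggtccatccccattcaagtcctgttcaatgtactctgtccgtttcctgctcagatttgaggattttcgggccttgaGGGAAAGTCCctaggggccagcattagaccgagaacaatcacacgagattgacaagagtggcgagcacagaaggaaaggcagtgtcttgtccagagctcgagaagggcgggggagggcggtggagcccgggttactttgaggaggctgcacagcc
Csf3r, chr4:126024409-126024658, plus strand: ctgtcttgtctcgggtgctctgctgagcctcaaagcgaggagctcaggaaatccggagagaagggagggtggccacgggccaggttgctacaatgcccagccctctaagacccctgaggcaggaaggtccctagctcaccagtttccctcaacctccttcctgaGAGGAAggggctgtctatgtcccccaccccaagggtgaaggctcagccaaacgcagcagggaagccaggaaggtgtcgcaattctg
The *Csf1* window held 1 match to the NF-kB-type letters, 155 to 146 bases before the start, and windows of the same length held a match in 4.94% of 32851 cases. The *Csf3r* window held 1 match to the PU.1-type letters, 86 to 81 bases before the start, against 23.3% of all windows. Neither held TGANTCA, an AP-1-type motif found in 6.75%. These are matches of letters only.

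*Csf1r* was highest in microglia. Its level there was 2727 CPM in vehicle IgG 1, 1394 in vehicle IgG 2, 2724 in mavrilimumab 1 and 2493 in mavrilimumab 2, a mean of 2335 CPM ± 636 (SD, n = 4). Monocytes followed, with 110.0 CPM in vehicle IgG 2, 618 in mavrilimumab 1 and 227 in mavrilimumab 2. Neutrophils had 83.7 CPM in vehicle IgG 2 (10 UMIs) and 83.2 in mavrilimumab 2 (24 UMIs). The ranges of these 3 groups over libraries did not overlap. Within vehicle IgG 2, the exact Poisson intervals of monocytes (76.2 to 154 CPM) and neutrophils (40.2 to 154 CPM) did overlap. T, NK and neural cells had 0 to 4.63 CPM, and their ranges overlapped. Barcodes with 10 to 100 UMIs, read as free RNA, held *Csf1r* at 1030 CPM in vehicle IgG 1 and 10.8, 149 and 272 CPM in the other libraries, above the level in T cells of the same library in every case. In mavrilimumab 2 it also lay above the monocytes (227 CPM) and the neutrophils (83.2 CPM). The vehicle IgG 2 level rests on 4 UMIs. A CPM is a share of UMIs, so free RNA levels, here and below, give no amount per cell. In mavrilimumab 2, 113600 such barcodes held 2018 *Csf1r* UMIs, whereas 67 monocytes held 286. How much free RNA a cell held was not tested.

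Within libraries, *Csf1r* was higher in microglia than in monocytes by 3.06 on the log2 scale (SE 0.32, edgeR quasi-likelihood adjusted p = 0.000929), in 3 of 3 libraries. All 3 members that could be tested passed in this comparison, against 27.9% of all genes tested. *Csf3r* was higher in microglia by 2.25 (SE 0.27, edgeR adjusted p = 0.00144) and *Csf1* by 5.31 (SE 0.53, edgeR adjusted p = 0.000782). The *Csf1* difference rested on 6 UMIs in monocytes and was 6.62 without vehicle IgG 2, 4.33 without mavrilimumab 2 and 3.93 with barcodes meeting more than 1 rule kept. With those barcodes kept, *Csf1r* gave 2.37 and *Csf3r* 1.21. *Il34* had too few UMIs for any test.

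The monocyte sums also held the 4 dendritic markers, at 573, 600.5 and 1008 CPM in vehicle IgG 2, mavrilimumab 1 and mavrilimumab 2, and their part in these differences was not tested. Genes around the receptor are read against the 27.9% of all genes that passed. Of 8 factors linked to *Csf1r* expression, 4 were higher in microglia and 1 lower, with a median log2 difference of 0.88 against 0.07 over all genes tested. *Maf* was higher by 3.89 (188 against 12.9 CPM) and *Mef2c* by 2.34. Both encode transcription factors found in macrophages. Of 11 genes of CSF1R-proximal signalling, 3 were higher and none lower, a share near that of all genes, and the list's median difference was -0.08: *Trem2* by 6.34, *Inpp5d* by 1.58 and *Pik3r1* by 1.19. *Trem2* encodes a microglial lipid receptor that signals through TYROBP, and *Inpp5d* the phosphatase SHIP1. Of 7 other colony-stimulating factor and receptor genes tested, 1 was higher and 3 were lower. The higher one, *Kitl*, which encodes the ligand of KIT, and *Kit* itself (log2 differences of 3.00 and -3.18) were named after their values were seen. *Flt3*, a receptor of dendritic cell and progenitor lineages, was lower in microglia by 5.31 on the log2 scale, and *Csf2rb*, the shared beta chain of the GM-CSF receptor, by 1.23 (85.8 against 216 CPM; edgeR adjusted p = 0.0277).

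**Figure D1:**
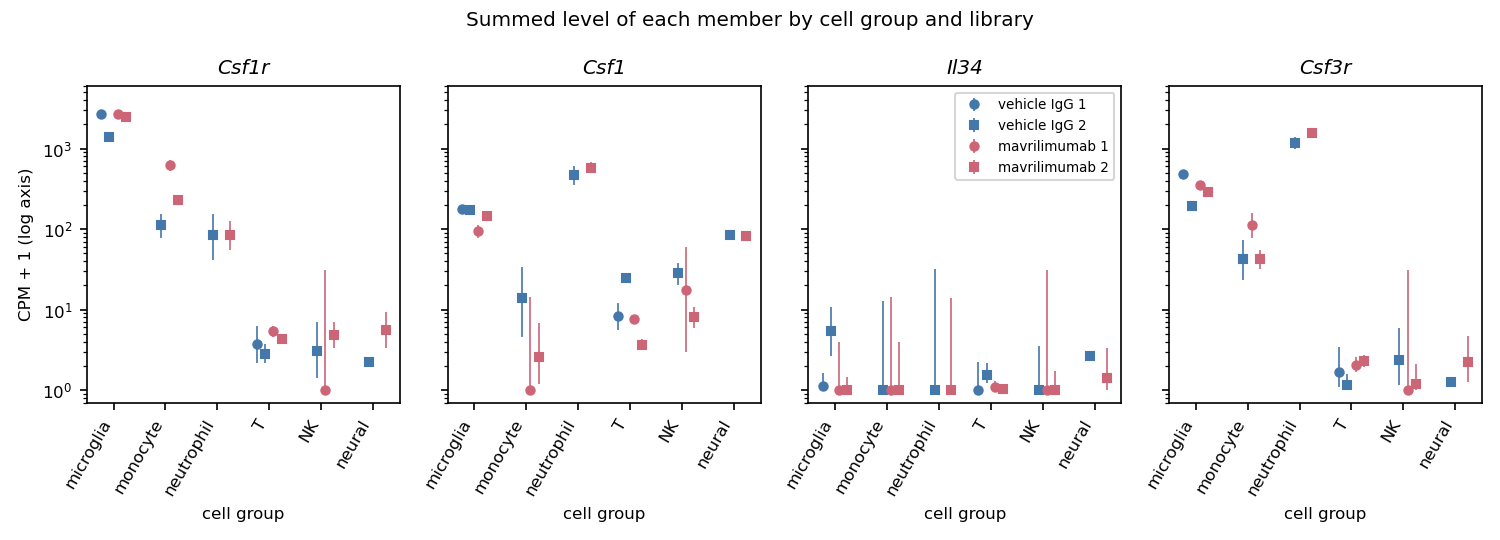
Level of each gene (CPM + 1, log axis) by cell group, one point per library with at least 20 cells, with exact Poisson 95% intervals for counting error. *Csf1r* peaks in microglia, *Csf3r* and *Csf1* in neutrophils, and *Il34* stays near 0.

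*Csf3r* was highest in neutrophils, at 1181 CPM in vehicle IgG 2 (56 cells) and 1556 CPM in mavrilimumab 2 (51 cells). The neutrophils of vehicle IgG 1 (9 cells) and mavrilimumab 1 (13 cells) were too few to be used. Microglia followed with 482, 195, 357 and 288 CPM, in the order vehicle IgG 1, vehicle IgG 2, mavrilimumab 1, mavrilimumab 2. Monocytes had 42.1 CPM in vehicle IgG 2, 111 in mavrilimumab 1 and 41.3 in mavrilimumab 2. The lowest microglial value thus lay above the highest monocyte value. T, NK and neural cells had 0 to 1.36 CPM. Free RNA held *Csf3r* at 480 CPM in vehicle IgG 1, level with its microglia, and at 0 in vehicle IgG 2, where it held only 368673 UMIs of all genes. In mavrilimumab 1 and 2 it held *Csf3r* at 58.2 and 57.9 CPM, the latter above the monocytes of that library.

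In the 2 libraries with both groups, *Csf3r* was higher in neutrophils than in monocytes by 5.24 on the log2 scale (SE 0.40, edgeR adjusted p = 0.000224). *Csf1* was higher by 7.06 (SE 0.65, edgeR adjusted p = 0.0004), from 223 UMIs in neutrophils and 6 in monocytes. It was 4.88 without mavrilimumab 2, 7.93 without vehicle IgG 2 and 5.54 with barcodes meeting more than 1 rule kept, where *Csf3r* gave 4.18. *Csf1r* did not pass the test, with a log2 difference of -0.85 (SE 0.41, edgeR adjusted p = 0.180). Thus 2 of the 3 members tested passed, where 20.9% of all genes did. Neutrophils were shallow, their median depth being 1310.5 UMIs in vehicle IgG 2 and 4666 in mavrilimumab 2. The 5 neural markers summed to 8382 CPM in the former and 142 CPM in the latter.

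Granulocyte genes describe the neutrophil group. *S100a8* and *S100a9*, which encode the calprotectin subunits, stood at 21742 and 23456 CPM, and *Mmp9*, a granule gelatinase, at 771 CPM with no UMI in monocytes. Of 10 G-CSF receptor signalling genes tested, 3 were higher and none lower, against the 20.9% of all genes that passed. *Socs3*, a feedback inhibitor of the receptor, was higher by 2.02, the kinase gene *Jak1* by 1.54 and the adaptor gene *Gab2* by 1.35. Of 6 *Csf1r* expression factors tested, 1 was higher and 2 were lower. *Ets2* was higher by 4.95 (309.6 against 10.8 CPM), and *Irf8*, a monocyte and dendritic cell factor, was lower by 7.22.

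Transcripts of *Csf3*, the ligand gene of *Csf3r*, were at 1 UMI in the 39645 cells kept, which says nothing of ligand made by other cells.

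A share of cells with at least 1 UMI depends on depth, so shares were also computed with each cell thinned to 1000 UMIs. Unthinned, 90.2%, 51.5%, 83.6% and 77.7% of microglia held a *Csf3r* UMI in vehicle IgG 1 and 2 and mavrilimumab 1 and 2, at median depths of 14284, 3081, 5491 and 11007 UMIs. At 1000 UMIs these shares were 37.9%, 21.3%, 32.3% and 23.8%. In neutrophils they were 65.9% in vehicle IgG 2 and 66.4% in mavrilimumab 2. T cells gave 0.00923% to 0.195% at the same depth, from median depths of 2535 to 12713 UMIs. For *Csf1r* the thinned share in microglia was 72.8% to 87.5%, against 0.174% to 0.508% in T cells.

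*Csf1* had the broadest distribution. It was at 469 and 579 CPM in the neutrophils of vehicle IgG 2 and mavrilimumab 2. Microglia had 176, 170.0, 92.4 and 144 CPM in vehicle IgG 1 and 2 and mavrilimumab 1 and 2, and neural cells 83.3 and 81.7 CPM in vehicle IgG 2 and mavrilimumab 2. The ranges of these 3 groups did not overlap. NK cells had 7.12 to 27.3 CPM, T cells 2.68 to 23.8 and monocytes 0 to 12.9, with overlapping ranges. Free RNA held *Csf1* at 158 and 97.6 CPM in vehicle IgG 1 and 2 and 21.7 and 55.3 CPM in mavrilimumab 1 and 2. It lay below the microglia of each library, closely so in vehicle IgG 1.

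Which cells held the *Csf1* UMIs therefore changed with what a library contained. Microglia held 89.4% of them in vehicle IgG 1 and 2.86% in vehicle IgG 2, where neural cells, which the CD45+ gate should remove, held 75.4%. T cells held 41.3% in mavrilimumab 1, and microglia 53.1% in mavrilimumab 2. For *Csf1r*, microglia held 77.5% to 98.0% of the UMIs in every library. For *Csf3r* they held 47.8% to 90.7%, and neutrophils held 25.6% in vehicle IgG 2 and 13.1% in mavrilimumab 2.

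**Figure D2:**
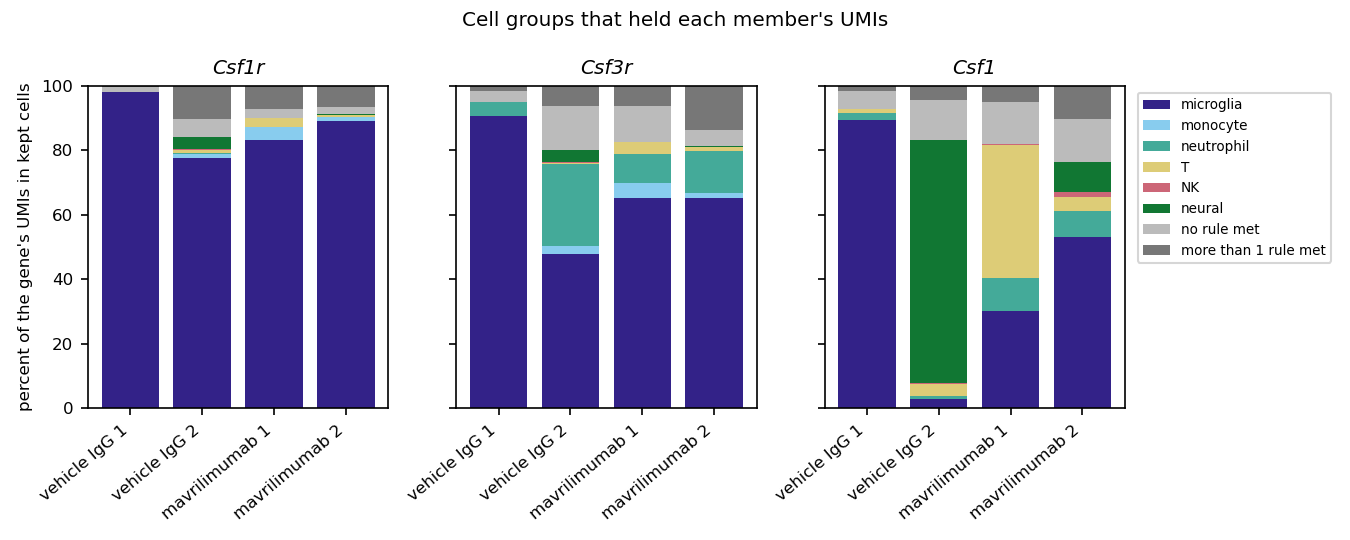
Percent of each gene's UMIs in kept cells (y axis) held by each cell group, one stacked bar per library. Microglia hold most *Csf1r* UMIs in all 4 libraries, whereas the largest *Csf1* segment is microglia in vehicle IgG 1 and mavrilimumab 2, neural cells in vehicle IgG 2 and T cells in mavrilimumab 1.

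Neural cells were compared with microglia in the 2 libraries that held both. No member passed, where 0.803% of all genes did. *Csf1* gave a log2 difference of -1.27 (SE 0.19, edgeR adjusted p = 0.0893), with 82.5 CPM against 157. *Csf1r* gave -9.97 (SE 0.55, edgeR adjusted p = 0.0504), with 2.94 CPM against 1944, and *Csf3r* -9.21 (SE 0.65, edgeR adjusted p = 0.0516), with 0.763 CPM against 242. Both receptors passed with limma-voom (adjusted p = 0.0041 and 0.00693), and *Csf1* did too (0.0197). Per cell, a *Csf1* UMI was found in 26.4% of 15414 neural cells of vehicle IgG 2 and 24.2% of 413 of mavrilimumab 2, or 7.47% and 6.93% at 1000 UMIs, against 0.378% to 1.59% in T cells. Free RNA of vehicle IgG 2 held *Csf1* at 97.6 CPM (36 UMIs), against 83.3 CPM in its neural cells and 23.8 CPM in its T cells. Barcodes of that library with 100 to 500 UMIs, a range chosen after seeing the data, held *Csf1* at 82.2 CPM. In mavrilimumab 2 free RNA held 55.3 CPM, against 81.7 CPM in neural cells. Cycling neural cells (at least 2 UMIs of *Mki67* and *Top2a*) had *Csf1* at 79.9 and 106 CPM and those with none at 85.0 and 78.7 CPM, in vehicle IgG 2 and mavrilimumab 2. The difference did not pass (log2 0.13, SE 0.25, edgeR adjusted p = 0.968), where 6.96% of genes did.

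*Il34* was near 0 throughout. Its largest count was 122 UMIs in the neural cells of vehicle IgG 2, or 1.68 CPM, and 0.616% of those cells held a UMI (exact 95% interval 0.499% to 0.753%). In mavrilimumab 2 the 413 neural cells held 1 UMI, and 15 of the library's 17 UMIs lay in cells that met no rule (3.11 CPM). Such cells held 47 of the 196 UMIs of vehicle IgG 2. Free RNA of vehicle IgG 2 (barcodes with 100 to 500 UMIs, a range chosen after seeing the data) held *Il34* at 2.11 CPM (49 of 23218873 UMIs), above the 1.68 CPM of its neural cells. Barcodes with 10 to 100 UMIs held 0 UMIs of it, among 368673 UMIs of all genes, too few to read so low a level. No *Il34* UMI was found in monocytes, neutrophils or NK cells; 0 of the 442 NK cells of vehicle IgG 2 allows a share of cells with a UMI of up to 0.679%. Microglia and T cells held 0 to 7 UMIs in each library, the highest level being 4.45 CPM (6 UMIs) in the microglia of vehicle IgG 2.

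Between treatments, no member passed in microglia, and 0% of the 12313 genes tested did with edgeR (371 had an unadjusted p under 0.05; DESeq2 called 10). *Csf1r* gave a log2 difference, mavrilimumab minus vehicle IgG, of 0.41 (SE 0.38, edgeR adjusted p = 1.00). The vehicle IgG libraries spanned 1394 to 2727 CPM and both mavrilimumab libraries lay within that range. *Csf3r* gave -0.01 (SE 0.48), with mavrilimumab again inside the vehicle range. *Csf1* gave -0.48 (SE 0.30, edgeR adjusted p = 1.00), from 92.4 and 144 CPM in mavrilimumab 1 and 2 and 176 and 170.0 CPM in vehicle IgG 1 and 2. Free RNA held *Csf1* at 21.7, 55.3, 158 and 97.6 CPM in the same order, and its part was not tested. Without vehicle IgG 1, *Csf1r* gave 1.00 (edgeR adjusted p = 0.0157), and without vehicle IgG 2 it gave 0.023 (edgeR adjusted p = 0.966). *Csf3r* ran from -0.50 without vehicle IgG 2 to 0.81 without vehicle IgG 1. Each of these fits has 1 vehicle library, which is assumed to vary like the mavrilimumab libraries. In the fit without vehicle IgG 1, the single vehicle library left was that with the high neural marker sum. Whether the neural transcripts bear on the lower *Csf1r* level of that library was not tested.

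Thinned shares gave no p below 0.333, the smallest that 2 libraries against 2 allow. The share of microglia with a *Csf1r* UMI was 86.9% in mavrilimumab and 77.6% in vehicle IgG (exact permutation p = 0.333). For *Csf1* it was 9.03% and 11.9% (exact permutation p = 0.333), and for *Csf3r* 28.0% and 29.6% (exact permutation p = 1).

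Monocytes could be compared with 1 vehicle library against 2, the single one being assumed to vary like the others. *Csf1r* stood at 618 and 227 CPM in mavrilimumab 1 and 2 and at 110.0 CPM in vehicle IgG 2 (34 UMIs; exact Poisson interval 76.2 to 154). The difference of 1.99 on the log2 scale did not pass (SE 0.61, edgeR adjusted p = 0.194), and *Csf3r* gave 0.80 (SE 0.66, edgeR adjusted p = 0.631); 1.03% of genes passed. Without mavrilimumab 1 the *Csf1r* difference was 1.01. The 5 neural markers summed to 1783 CPM in the monocytes of vehicle IgG 2 and to 302 and 267 CPM in those of mavrilimumab 1 and 2; their part in the difference was not tested. The 6 microglial markers summed to 417 CPM in vehicle IgG 2 and to 1636 and 1098 CPM in mavrilimumab 1 and 2, with 5 of 6 detected in each library. Free RNA held *Csf1r* at 10.8 CPM in vehicle IgG 2 and at 149 and 272 CPM in mavrilimumab 1 and 2, and the part of neither was tested. Of 11 G-CSF receptor signalling genes 1 passed, *Socs3*, higher in mavrilimumab by 3.79 (90.1 against 6.47 CPM; edgeR adjusted p = 0.0384), and limma-voom called 1 gene in the whole comparison. The 6.47 CPM of *Socs3* lay below 9.71 CPM, the level that 3 counts give in the monocytes of vehicle IgG 2. Of 7 granulocyte genes tested 2 were lower and none higher, with a median difference of -0.17. These primary granule genes, *Mpo* and *Elane*, stood at 2052 and 1395 CPM in the vehicle library and at 0.397 and 11.1 CPM in mavrilimumab (edgeR adjusted p = 8.06e-06 and 0.000567). The 6 neutrophil markers summed to 563 CPM in the monocytes of vehicle IgG 2 and to 21.6 and 1202 CPM in those of mavrilimumab 1 and 2. The study also annotated granulocyte-monocyte progenitors in these tumours, which the monocyte rule does not set apart. Whether the monocyte group held the same kinds of cell in each library was not tested, so these values need not be changes within monocytes.

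**Figure D3:**
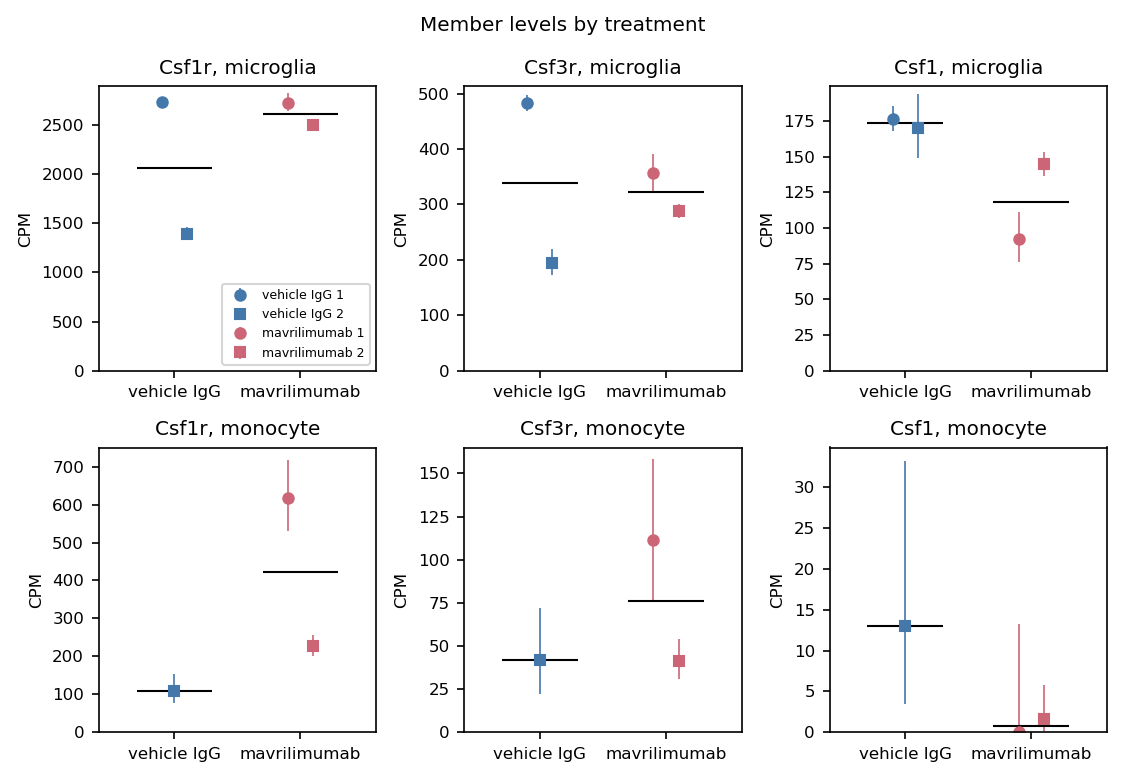
Level (CPM) of the receptors and *Csf1* in microglia and monocytes by treatment, one point per library with exact Poisson 95% intervals and a line at the mean; monocytes of vehicle IgG 1 had under 20 cells. Both mavrilimumab libraries lie within the vehicle range for *Csf1r* and *Csf3r* in microglia and above the single vehicle library for *Csf1r* in monocytes.

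In T cells no member passed between treatments. *Csf1r* (1.84 to 4.39 CPM) gave a log2 difference of 0.91 (SE 0.46) and *Csf3r* (0.160 to 1.27 CPM) 1.98 (SE 0.86), both with an edgeR adjusted p of 0.792. Both lay below free RNA in each library, except *Csf3r* in vehicle IgG 2, where free RNA held 0 UMIs of it. Barcodes of that library with 100 to 500 UMIs held *Csf3r* at 1.42 CPM, above its T cells. The level of *Csf1* was 7.38 and 23.8 CPM in the vehicle IgG libraries 1 and 2, and 6.56 and 2.68 CPM in the mavrilimumab libraries 1 and 2. The log2 difference of -1.69 did not pass (SE 0.80, edgeR adjusted p = 0.792), with -0.56 when vehicle IgG 2 was left out. Of 14371 genes, 0% passed with edgeR (753 had an unadjusted p under 0.05, and DESeq2 called 190). In NK cells *Csf1* gave -1.69 (SE 0.78, edgeR adjusted p = 0.219), from 27.3 CPM in vehicle IgG 2 and 16.5 and 7.12 CPM in mavrilimumab 1 and 2, where 10.5% of genes passed; limma-voom gave an adjusted p of 0.00155, and without mavrilimumab 2 the difference was -0.18. The single vehicle library of NK cells was assumed to vary like the others. The value without mavrilimumab 2 is 1 library against 1, scaled by totals only, with 1 UMI added to each count. It rests on 2 UMIs in the 20 NK cells of mavrilimumab 1. The free RNA level of *Csf1* was highest in vehicle IgG 1 (158 CPM), ahead of vehicle IgG 2 (97.6 CPM), mavrilimumab 2 (55.3 CPM) and mavrilimumab 1 (21.7 CPM). Each of these levels lay above the T cells of the same library, and above its NK cells where these were used. The T cells did not follow that order, those of vehicle IgG 1 (7.38 CPM) lying below those of vehicle IgG 2 (23.8 CPM). The 5 neural markers summed to 4487 CPM in the T cells and 4534 CPM in the NK cells of vehicle IgG 2, against 70.3 to 142 CPM and 8.24 to 64.5 CPM in the other libraries. Their part in the *Csf1* values was not tested.

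Between lymphocyte groups no *Csf1* difference passed. NK cells were above T cells in 3 of 3 libraries by 0.79 on the log2 scale (SE 0.37, edgeR adjusted p = 0.289; 9.28% of genes passed). CD8 T cells were below CD4 T cells in 3 of 4 libraries, with a log2 difference of -1.13 (SE 0.49, edgeR adjusted p = 0.182; 12.1% of genes passed). Regulatory T cells, with *Foxp3*, had 9.56 and 11.4 CPM in mavrilimumab 1 and 2, against 10.5 and 4.36 CPM in other CD4 T cells (edgeR adjusted p = 0.832; 4.2% of genes passed).

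Within each library, *Csf1* was compared between microglial states. Microglia with at least 2 UMIs of *Itgax*, *Cst7*, *Spp1* and *Lpl*, genes of the disease-associated (DAM) state, had *Csf1* at 207, 207, 116 and 154 CPM in vehicle IgG 1 and 2 and mavrilimumab 1 and 2. Microglia with none had 107, 132, 37.5 and 103 CPM. The level was higher with DAM genes in 4 of 4 libraries, by 0.99 on the log2 scale (SE 0.19, edgeR adjusted p = 0.00167). In vehicle IgG 1, free RNA held *Csf1* at 158 CPM, above the microglia with none. In the other libraries free RNA lay below both states, and its part was not tested.

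The receptors did not pass in that comparison. *Csf1r* gave 0.19 (SE 0.20, edgeR adjusted p = 0.502), and *Csf3r* gave -0.26 (SE 0.18, edgeR adjusted p = 0.310), lower in 4 of 4 libraries. Thus 1 of 3 members passed, where 25.8% of genes did. Cells with DAM genes were also deeper, at medians of 4613 to 20302 UMIs against 2328 to 6557; the part of depth was not tested. The *Csf1* call was lost when barcodes meeting more than 1 rule were kept (0.84, edgeR adjusted p = 0.0802) and without the library term (0.95, edgeR adjusted p = 0.154). Across libraries the levels of the states overlapped.

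Over all genes, 1117 were higher and 1113 lower with the DAM genes, and the genes near CSF1R are read against that. Of 11 proximal signalling genes, 2 were higher (*Tyrobp* by 1.04 and *Trem2* by 0.58) and 2 lower (*Cbl*, a ubiquitin ligase for the receptor, with a log2 difference of -0.60, and the kinase gene *Syk* with -0.58). Of 8 expression factors 3 were lower and none higher: *Runx1* (-0.85), *Mef2c* (-0.71) and *Maf* (-0.58). *Csf2ra*, the GM-CSF receptor alpha chain that mavrilimumab binds, was higher by 0.88 (269 against 165 CPM; edgeR adjusted p = 0.0028).

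Cycling microglia had less *Csf3r*. In cells with at least 2 UMIs of *Mki67* and *Top2a* its level was 336, 81.2 and 155 CPM in vehicle IgG 1, vehicle IgG 2 and mavrilimumab 2, from 22, 24 and 60 cells. These sums held 136, 14 and 113 *Csf3r* UMIs. In cells with none the level was 491, 218 and 307 CPM. The level fell by 0.95 on the log2 scale (SE 0.20, edgeR adjusted p = 0.0105), in 3 of 3 libraries. *Csf1r* gave -0.40 (SE 0.21, edgeR adjusted p = 0.349) and *Csf1* -0.46 (SE 0.23, edgeR adjusted p = 0.314), so that 1 of 3 members passed where 5.55% of genes did. Without mavrilimumab 2 the *Csf3r* value was again -0.95 but did not pass (edgeR adjusted p = 0.193). The call was also lost without the library term (edgeR adjusted p = 0.915). Median depth was 19934, 8020.5 and 11272 UMIs in cycling cells and 14143, 2880 and 11094 in the others. *Csf1r* was lower in cycling cells in 2 of 3 libraries, one being vehicle IgG 2 (713 against 1519 CPM). The microglia of that library had the high neural marker sum (4269.5 CPM). Free RNA of vehicle IgG 1 held *Csf3r* at 480 CPM, between its 2 states, and lay below both states elsewhere. The part of depth, neural transcripts or free RNA was not tested. *Cebpa*, a myeloid transcription factor, was the 1 of 8 expression factors that passed, with a log2 difference of -0.89.

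**Figure D4:**
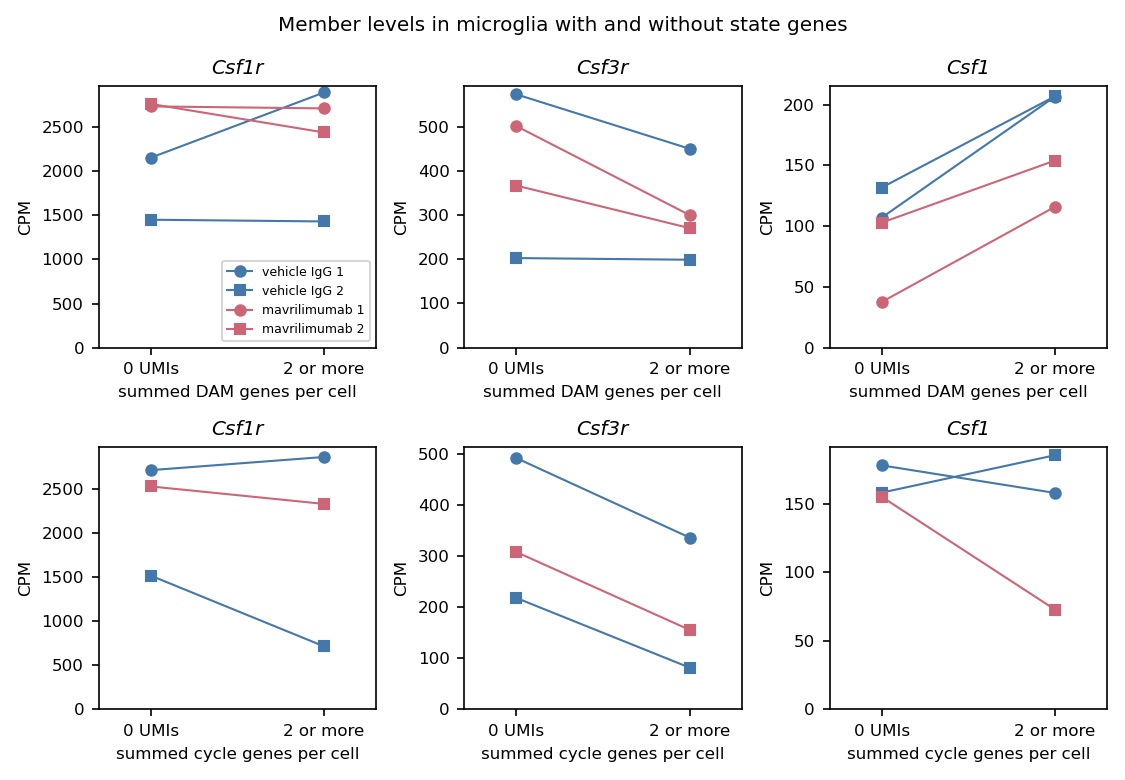
Level (CPM) of *Csf1r*, *Csf3r* and *Csf1* in microglia with 0 or with 2 or more UMIs of the DAM genes (top) and of the cycle genes (bottom), lines joining the 2 sums of a library. *Csf1* is higher with DAM genes in 4 of 4 libraries, and *Csf3r* is lower with cycle genes in 3 of 3.

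Co-detection within microglia was close to the product of the single shares. At 1000 UMIs, *Csf1r* and *Csf3r* were both seen in 30.9%, 17.1%, 28.5% and 21.1% of microglia of vehicle IgG 1 and 2 and mavrilimumab 1 and 2. The products were 31.3%, 15.5%, 28.2% and 20.5%. In neutrophils, *Csf1* and *Csf3r* were both seen in 23.7% of cells in vehicle IgG 2 and 19.4% in mavrilimumab 2, where the products were 19.7% and 20.6%.

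Over the 18 sums of cell group and library, the genes whose pattern was most like each member were listed by Pearson's r of log2(CPM + 1). The sums share libraries, so r is a description only. For *Csf1r* they were *Tbxas1* (0.99), *P2ry6*, *Unc93b1*, *Fcgr2b* and *Gm15964* (0.97). For *Csf3r* they were *Clec5a* (0.99), *Nlrp3*, *Tlr13*, *Pilra* and *Siglece* (0.98), most of them receptors or sensors of myeloid cells. For *Csf1* they were *Vcam1* (0.93), *Npepps*, *Cpeb4*, *Adamts1* and *Cdk5r1* (0.88). For *Il34*, whose own level was at most 4.45 CPM, r reached 0.82 with *Cldn11*.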

How the data were processed

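The deposited matrices hold counts of UMIs per gene and barcode, unfiltered, made by the authors with Cell Ranger (version 9.0.1 per the file headers, 7 and 7.1.0 in the submitters' processing notes, which name the build mm10). The deposited T cell receptor files were used only for barcodes and sample names. One of the receptor libraries, vehicle IgG 2, was not used here. The members and lists were chosen with earlier results of these data known.

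Cells with at least 1000 UMIs (500 for neutrophils), 200 to 6000 genes detected and no more than 10% of UMIs from mitochondrial genes were kept. No doublet caller was run, and barcodes meeting more than 1 rule were set aside. Counts were summed per library and group (at least 20 cells) and tested with edgeR 4.0.16 (TMM, filterByExpr, quasi-likelihood, Benjamini-Hochberg over all genes, threshold 0.05) in R 4.3.3, with the library as a term when groups of the same libraries were compared. The SE given with an edgeR value is the absolute log2 difference divided by the square root of the test's F statistic. The fits were tested on simulated data drawn from 1 mean profile, in which libraries differed only in depth. How the fits behave with libraries as unlike as these was not tested. RLE factors, DESeq2 1.42.0, limma-voom (limma 3.58.1), other filters and left-out libraries were alternatives. Where leaving out a library left 1 sum against 1, the value is a log2 ratio of counts with 1 UMI added. Such counts were scaled by their totals, without TMM. Thinned shares are exact expectations. Intervals and limits at 0 (3 counts) cover counting error only. Of the pathway lists, up to 4 genes per list and comparison were open to naming, those with the largest log2 difference among genes that passed with a mean of at least 20 CPM, and 5 genes per member by likeness (a CPM of at least 50 in a sum). Some items are not reported here.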

Additional observations from a re-analysis of the deposited data

Results flagged for a closer look

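Some levels in cells outside the comparisons lay above the vehicle IgG libraries beyond counting error. Only higher levels in mavrilimumab were searched for. *Csf1* stood at 1266 CPM in the 13 neutrophils of mavrilimumab 1, a group too small to be used. Among barcodes that met more than 1 rule, *Csf1r* stood at 886 CPM in mavrilimumab 1 (36 barcodes) and 626 CPM in mavrilimumab 2 (166 barcodes), against 424 CPM in vehicle IgG 1 (8 barcodes) and 73.0 CPM in vehicle IgG 2 (527 barcodes). These barcodes were different mixtures: 267 met the microglial and neural rules and 209 the T cell and neural rules in vehicle IgG 2, whereas 26 in mavrilimumab 1 and 66 in mavrilimumab 2 met the microglial and T cell rules. Lower levels also occurred. Among cells that met no rule, *Csf1* stood at 11.8 CPM in mavrilimumab 1 and 58.3 CPM in mavrilimumab 2. In vehicle IgG 1 and 2 such cells had 98.5 and 48.4 CPM.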

How the results depend on the processing

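Of 463 alternative values over 49 results, 364 were counted as unchanged. For values with a test this means the same direction and side of the threshold, whatever the size. Counts stayed within 1.5 times, and levels, shares and fits with no p moved by less than the spread or the error. With 2 libraries a group, single libraries decided several values, and Csf1r between treatments in microglia reached 1.00 (954 genes called) without vehicle IgG 1 and 0.023 (111 genes) without vehicle IgG 2. The cause of the changes below was not tested.

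Between treatments in microglia, Csf3r turned to 0.16 with limma-voom, 0.014 with no filter and 0.070 with barcodes of more than 1 group kept, and genes called were 10 with DESeq2 and 8 with no filter. With the replicate block, values were 0.49 for Csf1r, -0.51 for Csf1 and 0.13 for Csf3r, and 143 genes were called; T cell Csf1 gave -1.59. Monocytes and NK cells could not be fitted with the block. Whether libraries of the same number were made together was not given in the sources used here. In monocytes Csf1r gave 2.03 with no filter (adjusted p = 0.00248), and genes called were 31 with RLE, 23 with DESeq2, 1 with limma-voom, 495 with no filter, 105 with those barcodes kept and 32 at 2000 UMIs. T cells had 190 with DESeq2. NK Csf1 gave -1.87 with limma-voom, and genes called were 232 with DESeq2, 2621 with limma-voom and 1913 with no filter. NK cells at 2000 UMIs or 5% mitochondrial UMIs were not run, with 1 library against 1.

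Genes called between neutrophils and monocytes were 611 with DESeq2 and 358 without the library term. Between NK and T cells they were 1952 with no filter, 771 at 2000 UMIs and 73 without the library term. Between neural cells and microglia, values with RLE, DESeq2, limma-voom, no filter and no library term were -9.96, -9.99, -10.33, -9.89 and -9.94 for Csf1r and -9.20, -9.24, -9.52, -9.11 and -9.48 for Csf3r, all past the threshold. Csf1 passed with limma-voom (-1.27) and without the library term (-1.27). Genes called were 364, 3265, 2306, 3262 and 1643, and 0 with those barcodes kept, at 2000 UMIs or at 5% mitochondrial UMIs. With DAM genes, Csf1 gave 0.84 with those barcodes kept and 0.95 without the library term, neither past the threshold, and genes called were 1376 with DESeq2, 240 and 16. In cycling microglia Csf3r gave -0.87 without the library term, no longer past the threshold (adjusted p = 0.915), and genes called were 848 with limma-voom, 849 with no filter and 151 without the library term. CD8 against CD4 T cells gave Csf1 -1.09 with no filter (adjusted p = 0.0252) and 2229 genes, or 164 without the library term. Regulatory T cells gave 183 genes with DESeq2, 723 with limma-voom, 928 with no filter and 0 without the library term. Cycling neural cells gave Csf1 -0.044 at 5% mitochondrial UMIs, with 525 genes by DESeq2 and 327 without the library term. With those barcodes kept, neutrophils had 988 CPM of Csf3r and 349 CPM of Csf1, and the Csf1r share differed by 16.3 points in microglia. Neural Csf1 was 86.5 CPM at 5% mitochondrial UMIs.

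Leaving out 1 library at a time gave these ranges. Between treatments, Csf3r in microglia ran from -0.50 to 0.81 (the high end without vehicle IgG 1), and Csf1r and Csf3r in monocytes from 1.01 and -0.11 without mavrilimumab 1 to 2.46 and 1.34 without mavrilimumab 2. T cell Csf1 ran from -2.34 to -0.56 (without vehicle IgG 2). NK Csf1 ran from -1.93 to -0.18, the latter without mavrilimumab 2. Between microglia and monocytes, Csf1 ran from 4.33 to 6.62. Between neutrophils and monocytes, Csf1r ran from -1.40 to -0.30, Csf1 from 4.88 to 7.93 and Csf3r from 4.71 to 5.21. Between neural cells and microglia, Csf1r ran from -10.12 to -8.95, Csf1 from -1.04 to -0.82 and Csf3r from -9.47 to -7.42. In cycling microglia, Csf1 ran from -0.68 (adjusted p = 0.00848 without vehicle IgG 2) to -0.062 and Csf3r from -1.23 to -0.82. Csf1 ran from -0.089 to 1.48 in regulatory T cells and from -0.089 to 0.47 in cycling neural cells, negative in both without mavrilimumab 2. Genes called ran from 0 to 954 between treatments in microglia, 462 (without mavrilimumab 2) to 2591 between microglia and monocytes, 756 to 1234 between NK and T cells, 999 (without vehicle IgG 1) to 2163 with DAM genes, 268 (without mavrilimumab 2) to 787 in cycling microglia and 627 to 971 for CD8 T cells.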
